A study of Homo sapiens with 4 samples.

Results

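Genes for the subunits of the oxidative phosphorylation complexes were followed in RNA-Seq of HGC-27 cells after USP47 knockdown. Members were the protein-coding genes whose symbols mark them as subunits of complexes I to V, without assembly factors and pseudogenes. They numbered 102 of the 63568 gene identifiers in the count tables, 13 on the mitochondrial genome and 89 on nuclear chromosomes, and the 2 genomes were kept apart. HGC-27 is a long-established line from a human gastric carcinoma. Its cells were infected with lentivirus carrying either a scrambled control shRNA or an shRNA against USP47, a deubiquitinase gene, and polyA RNA was sequenced from 2 control shRNA and 2 USP47 shRNA libraries. The study asked which cellular pathways respond to loss of USP47. Every library comes from the same line, and the sources used here do not say whether both USP47 shRNA libraries carry the same shRNA or whether single clones were picked.

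Oxidative phosphorylation moves electrons from NADH and succinate through complexes I to IV to oxygen and uses the resulting proton gradient to make ATP at complex V. Complex II is encoded wholly in the nucleus, whereas the other complexes combine subunits made from mitochondrial DNA inside the organelle with nuclear-encoded subunits that are imported. Mitochondrial genes are transcribed as long polycistronic RNAs and cut apart, while each nuclear subunit gene has a promoter of its own, many with sites for the respiratory factor NRF1 and for ETS factors such as GABPA.

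The libraries held between 15649899 and 20140273 counts. For USP47 itself, 1357 and 1297 counts in the controls stood against 749 and 309 after knockdown, a log2 fold change of -1.34 (SE 0.21, edgeR adjusted p = 0.00362). USP47 shRNA replicate 2 had the lowest USP47 count, and its scaling factor by trimmed mean of M values (TMM), 0.9195, lay apart from the other 3, which ran from 1.007 to 1.043. Results that rest on this library are given with and without it. Of the epithelial markers, KRT18 and KRT19 had 0 or 1 count per library, KRT8 between 10 and 19, CDH1 between 8 and 28, and EPCAM between 3 and 12, whereas VIM, a mesenchymal intermediate filament gene, lay between 352 and 500 CPM, the read count scaled to library size. The epithelial markers of a carcinoma were thus absent or near 0 in these cells. COL1A1, a fibroblast collagen gene, was at 896 and 960 CPM in the controls and 433 and 675 CPM after knockdown, and DCN, another matrix gene of fibroblasts, lay between 171 and 223 CPM. COL1A1 and EPCAM were called lower, with log2 fold changes of -0.75 and -1.84. The leukocyte markers PTPRC, CD3E and CD14 and the endothelial marker VWF had at most 12 counts per library. The part of these markers in the results below was not tested.

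Transcripts of the mitochondrial subunits were the most abundant members. In TPM, a level scaled to gene length and library size and deposited by the authors, the 13 mitochondrial genes took the first 13 ranks in the controls, from 2368 TPM for MT-ND4L to 12210 TPM for MT-CO3. Their order was led by MT-CO3, MT-ND4 and MT-CO1, whose control means lay between 11719 and 12210 TPM. The most abundant nuclear member was ATP5F1B, the catalytic beta subunit of ATP synthase, at 403 ± 16.4 TPM in the controls and 459 ± 15.5 TPM after knockdown (SD, n = 2 each). It was followed by the complex I accessory subunit NDUFS5 at 229 ± 8.20 TPM in the controls, the complex IV subunit COX6B1 at 196 ± 0.226 TPM and the complex I accessory subunits NDUFB9 at 195 ± 6.06 TPM and NDUFB7 at 169 ± 0.337 TPM. COX6B1 and NDUFB9 did not differ beyond their spread. This order of nuclear members depends on the gene lengths behind the TPM, such as 548 bases for NDUFS5. The complex IV subunit COX4I1, with a length of 4792 bases, ranked below NDUFS5. Yet COX4I1 had more counts in the controls, 2802 and 3772 against 1496 and 1868. The nuclear members had a median of 27.3 TPM in the controls, and 83 of 89 reached at least 1 TPM.

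The mitochondrial members as a group took a smaller share of the reads after knockdown. Their share of all counts was 5.563% and 5.627% with control shRNA and 4.765% and 4.805% with USP47 shRNA, so that the groups did not overlap. The nuclear members held 0.6529% and 0.6675% in the controls and 0.6907% and 0.7365% after knockdown, again with no overlap. The ratio of mitochondrial to nuclear subunit reads was 8.476 ± 0.0658 in the controls and 6.712 ± 0.265 after knockdown (SD, n = 2 each). The difference of the mitochondrial shares, 5.595% ± 0.0453 against 4.785% ± 0.0283 (SD), was larger than the spread between replicates. No test was run on the shares, since with 2 against 2 libraries a two-sided exact permutation p cannot go below 0.333. In bulk libraries like these, fewer cells of a type and less RNA per cell cannot be told apart. Mitochondrial RNA also moves with RNA quality and library preparation, and their part in these shares was not tested. The summed TPM of the nuclear members overlapped between the groups, with 4002 and 3798 in the controls and 4242 and 3874 after knockdown, while that of the mitochondrial members did not (78820 and 72390 against 66750 and 57190).

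Gene by gene, none of the 13 mitochondrial members passed the test. All p-values here come from the quasi-likelihood test of edgeR fitted on all 21932 genes with enough counts, adjusted by Benjamini-Hochberg over all of them with a threshold of 0.05, and they measure only the spread between these libraries. Across all genes tested, 6.52% were called higher and 9.56% lower after knockdown. The mitochondrial log2 fold changes ran from -0.31 to 0.25 with a median of -0.15, beside a median of -0.01 for all genes. Below 0 lay 10 of 13, beside 11144 of all 21932 genes. The adjusted p-values of the 13 members lay between 0.260 and 0.992. An unadjusted p under 0.05 was reached by 0 of 13, beside 7035 of all 21932 genes. The DESeq2 Wald test also called 0. In TMM-scaled CPM both USP47 shRNA libraries lay below both controls for 8 of the 13 genes, beside 31.7% of all genes tested, and above both controls for 2, beside 29.3%. With library size alone the numbers were 11 below and 1 above, beside 35.7% and 24.4% of all genes, and in TPM 10 below and 0 above, beside 32.1% and 16.3%.

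MT-CO3, a core subunit of cytochrome c oxidase, had 6627 and 7362 CPM in the controls and 4966 and 6317 CPM after knockdown. Its groups did not overlap, and its log2 fold change of -0.31 (SE 0.19, adjusted p = 0.286) was the lowest of the 13. MT-ATP6, the proton channel subunit of ATP synthase, was at 3846 and 3840 CPM in the controls and 2891 and 3435 CPM after knockdown, a log2 fold change of -0.28 (SE 0.17, adjusted p = 0.280). With libraries scaled by their size alone MT-ATP6 was called lower, at -0.36 (adjusted p = 0.0473), and was the only mitochondrial member called under that scaling. Over all alternatives its adjusted p ran from 0.0049 to 0.778. MT-ND4, a proton-pumping subunit of complex I, had 11697 and 12257 CPM against 9829 and 10039 CPM. MT-ND4L, MT-ND2 and MT-ND3, further membrane subunits of complex I, had log2 fold changes of -0.21, -0.14 and -0.15. MT-CYB, the cytochrome b of complex III, was at 2763 and 2727 CPM in the controls and 2214 and 2603 CPM after knockdown, with a log2 fold change of -0.19. The values of MT-ATP8, which overlaps MT-ATP6 on the same strand, were 432 and 435 CPM against 326 and 419 CPM. MT-CO1 and MT-CO2, the catalytic core of complex IV, overlapped between the groups, with log2 fold changes of -0.09 and -0.15.

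MT-ND6 and MT-ND5 were the members whose knockdown libraries both lay above both controls in TMM-scaled CPM, which held for neither gene in TPM. MT-ND6, the only protein gene on the light strand of the mitochondrial genome, had 1081 and 1030 CPM in the controls and 1243 and 1270 CPM after knockdown, a log2 fold change of 0.25 (SE 0.15, adjusted p = 0.260). MT-ND5, its neighbour on the other strand, had 3261 and 3062 CPM against 3384 and 3584 CPM. Relative to MT-ND4, itself at a log2 fold change of -0.27, the reads of MT-ND6 amounted to 0.0924 and 0.0840 in the controls and 0.1265 in each knockdown library. Those of MT-ND5 amounted to 0.279 and 0.250 against 0.344 and 0.357. Relative to the other 12 mitochondrial members together, the reads of MT-ND6 amounted to 0.0207 and 0.0188 in the controls and 0.0278 and 0.0249 after knockdown. The ratio of MT-CO3 to MT-CO1 reads was 0.529 and 0.530 in the controls and 0.435 and 0.469 after knockdown. MT-ND1 had a log2 fold change of 0.00, and its direction turned with the scaling, at -0.07 with library size alone. The sources name a stranded and another library kit and no strand setting for counting, so reads of MT-ND6 and reads from the opposite strand at that place cannot be told apart.

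**Figure D1:**
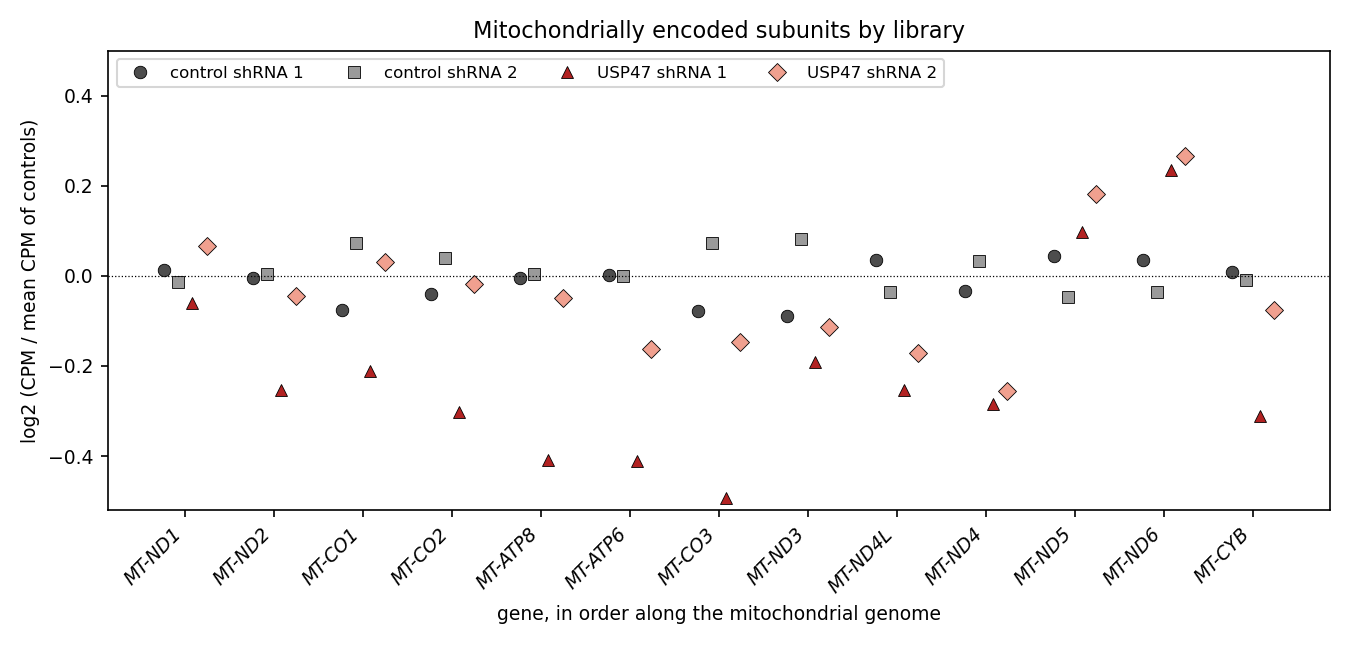
Each of the 13 mitochondrial subunit genes in each library, as log2 of its CPM over the mean CPM of the 2 control shRNA libraries, in order along the mitochondrial genome. On this TMM scale USP47 shRNA replicate 1 lies below replicate 2 for all 13 genes, an order that turns in TPM, and MT-ND5 and MT-ND6 have both knockdown libraries above both controls.

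The order of the 2 knockdown libraries in these genes turned with the scaling. In TMM-scaled CPM USP47 shRNA replicate 2 was above replicate 1 for 13 of 13 mitochondrial members, with library size alone for 7, and in TPM for 0. Of all 21932 genes it was above for 11651, 7618 and 2833 on these scales. The median log2 ratio to the control mean was -0.25 in replicate 1 and -0.05 in replicate 2 after TMM scaling, where the medians of all genes were -0.01 and -0.03. In TPM it was -0.17 and -0.39 (all genes 0.07 and -0.36). The mitochondrial members thus lay further below all genes in replicate 1 than in replicate 2. Because a scale shifts all genes of a library together, the scales are not separate support for this. With replicate 2 left out, 5 of 13 were called lower, MT-CO3, MT-ATP6, MT-ATP8, MT-CYB and MT-CO2, with log2 fold changes between -0.49 and -0.30, beside 15.0% of all genes called lower in that fit. With replicate 1 left out, 0 were called lower, beside 15.4% of all genes, and MT-ND6 was called higher at 0.28 (adjusted p = 0.0416, with 0.0416 to 0.768 over all alternatives), beside 16.6%. In both fits the lone USP47 shRNA library was assumed to vary like the control libraries.

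Most nuclear members were fitted slightly above 0. Of the 89 members, 84 had enough counts to be tested. COX7C and ATP5F1D rose, 4 fell, among them COX6B2, NDUFA4L2 and ATP5PB, and 78 did not pass. These 2 of 84 called higher stand beside 6.52% of all genes, and the 4 of 84 called lower beside 9.56%. At an unadjusted p under 0.05 there were 17 higher and 6 lower, beside 3255 and 3780 of all 21932 genes. The median log2 fold change was 0.21, a fold of 1.15, beside -0.01 for all genes. Above 0 lay 62 of 84, beside 10788 of all 21932 genes. Both knockdown libraries lay above both controls for 45 of 84 members (53.6%), beside 29.3% of all genes, and below both controls for 12 (14.3%), beside 31.7%.

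**Figure D2:**
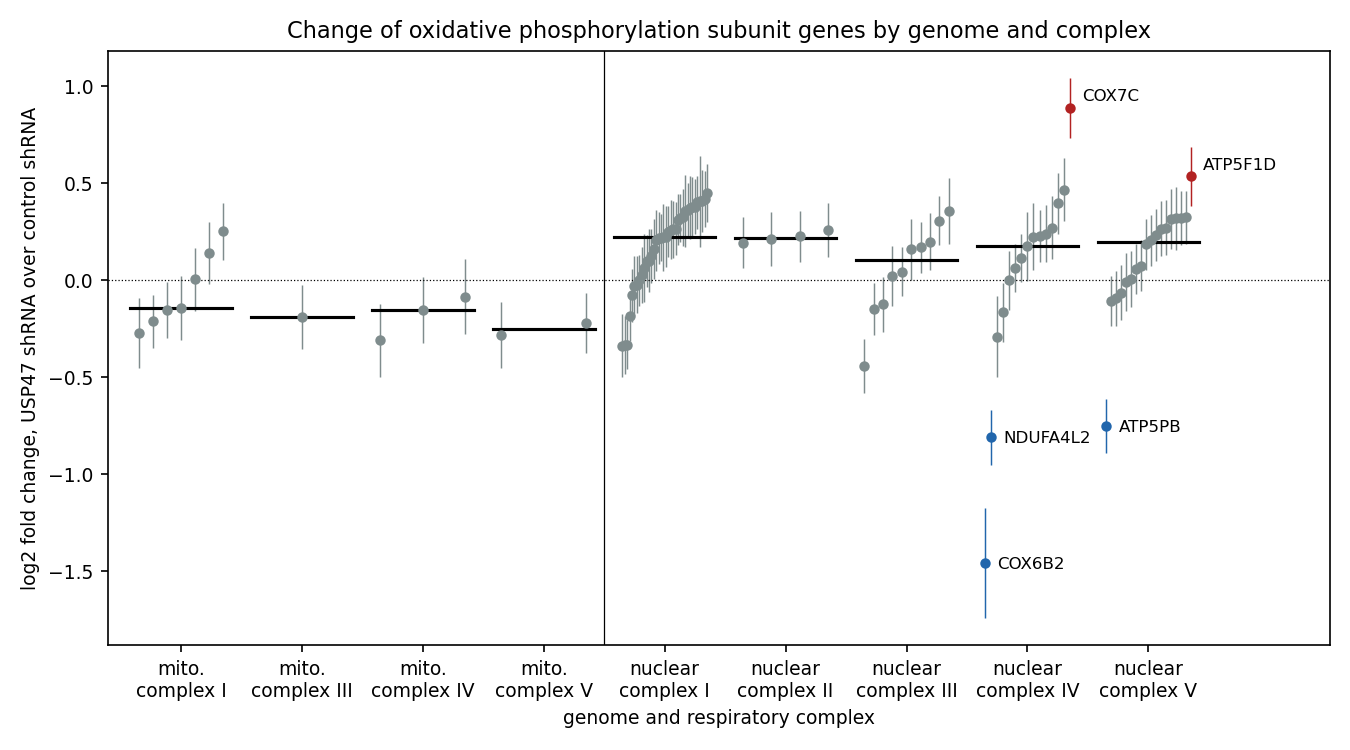
The log2 fold change (USP47 shRNA over control shRNA, 2 libraries each) with its SE for each tested subunit gene, by genome and complex, with black bars for the medians and with genes called higher in red, called lower in blue and not called in grey. The marker of 1 called gene is not drawn. The medians lie between 0.10 and 0.22 for the nuclear complexes and between -0.25 and -0.14 for the mitochondrial ones, and COX6B2 is the lowest gene.

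The position of the nuclear members in the 2 knockdown libraries also depended on the scaling. After TMM scaling their median log2 ratio to the control mean was 0.11 in replicate 1 and 0.27 in replicate 2. On this scale 73 of 84 were higher in replicate 2, beside 11651 of all 21932 genes. With library size alone the medians were 0.12 and 0.11 (all genes 0.01 and -0.18). In TPM they were 0.19 and -0.06 (all genes 0.07 and -0.36), with 8 of 84 higher in replicate 2, beside 2833 of all 21932 genes. The nuclear members thus lay above the median of all genes in both libraries. A change of scale shifts all genes of a library together, so this position relative to all genes could hardly differ between scales. Both knockdown libraries lay above both controls for 40 of 84 members with library size alone, beside 24.4% of all genes, and for 28 in TPM, beside 16.3%. After TMM scaling the controls differed too, with 66 of 84 members higher in control replicate 2 than in control replicate 1. Of all 21932 genes, 10929 were. With either USP47 shRNA library left out, the median log2 fold change of the nuclear members stayed above 0. It was 0.28 without replicate 1 and 0.11 without replicate 2.

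**Figure D3:**
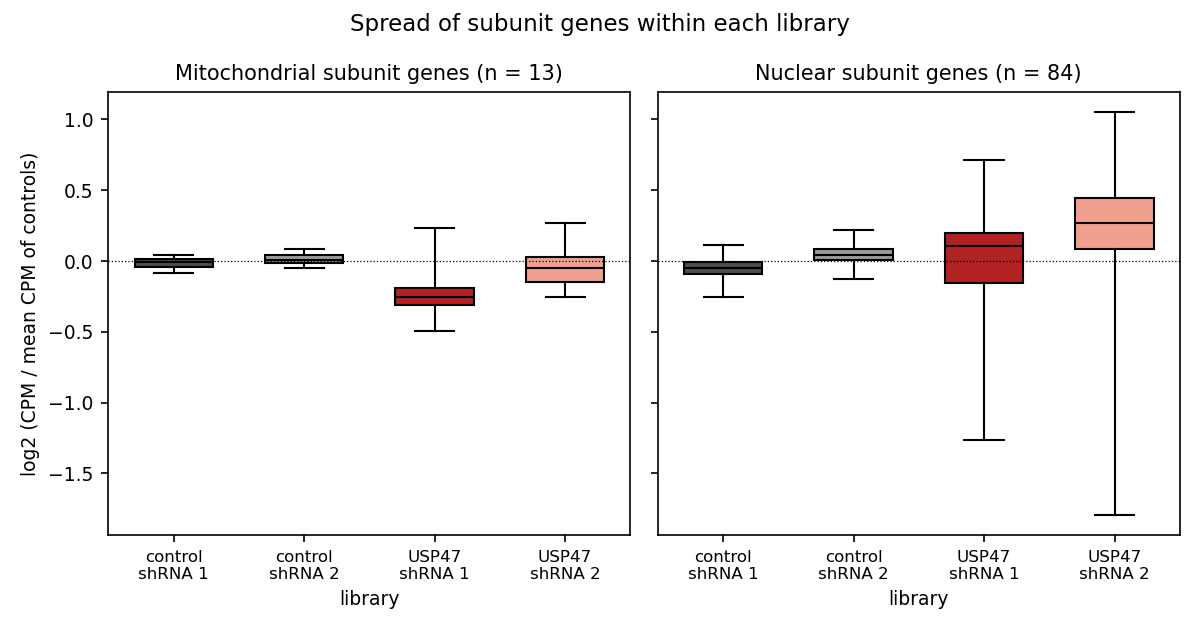
Distribution over the subunit genes of log2 of CPM over the mean CPM of the 2 controls, in each library, for 13 mitochondrial genes (left) and 84 tested nuclear genes (right). Boxes span the quartiles with the median as a line, and whiskers reach the lowest and highest gene. On this TMM scale the nuclear median is highest, at 0.27, in USP47 shRNA replicate 2, and the mitochondrial median is lowest, at -0.25, in USP47 shRNA replicate 1. In TPM both medians are lower in USP47 shRNA replicate 2 than in replicate 1.

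Complex I, which oxidises NADH, had 37 nuclear members. All were tested, 0 were called higher, and the median log2 fold change was 0.22. NDUFS1, the largest iron-sulfur core subunit, lay at 171 and 166 CPM against 130 and 137 CPM, a log2 fold change of -0.33 that did not pass (adjusted p = 0.0971). NDUFS1 was called lower with library size alone (adjusted p = 0.043) and without either USP47 shRNA library, and its adjusted p ran from 0.00772 to 0.618 over 12 alternatives.

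NDUFV1, the NADH-binding subunit, had 116 and 125 CPM in the controls and 140 and 170 CPM after knockdown (log2 fold change 0.36, adjusted p = 0.101). NDUFS7 and NDUFS8, which carry the last iron-sulfur clusters before the quinone, had log2 fold changes of 0.42 and 0.38 with adjusted p = 0.0756 and 0.123. NDUFS3 was at 0.27 and NDUFV2 at 0.22, and none of these 5 core subunits passed the test. Of the accessory subunits NDUFB7 had the highest log2 fold change, 0.45 (SE 0.15, adjusted p = 0.0693), with 61.3 and 69.9 CPM in the controls and 78.3 and 101 CPM after knockdown. NDUFS5, the highest of them in TPM, overlapped between the groups.

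The 4 subunits of complex II, succinate dehydrogenase, had both knockdown libraries above both controls in TMM-scaled CPM, beside 29.3% of all genes, and none passed the test. The number was 3 of 4 with library size alone, beside 24.4%, and 1 of 4 in TPM, beside 16.3%. SDHA, the flavoprotein, had 121 and 130 CPM in the controls and 138 and 157 CPM after knockdown, a log2 fold change of 0.23. SDHB, the iron-sulfur subunit, was at 0.19, and the membrane anchors SDHC and SDHD were at 0.26 and 0.21, with adjusted p-values between 0.225 and 0.342 for the 4 genes. Pseudogenes of SDHA held 37.4% of the reads of SDHA and its copies, and the log2 fold changes of SDHAP1 and SDHAP4 were -0.17 and -0.22.

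Complex III had 10 nuclear members, and none was called, with a median log2 fold change of 0.10. UQCR10, a small accessory subunit, lay lowest, at 38.6 and 43.9 CPM in the controls and 28.2 and 32.5 CPM after knockdown (log2 fold change -0.44, SE 0.14, adjusted p = 0.0542). UQCR10 was called lower with library size alone (adjusted p = 0.033), where each library had to hold 10 counts or more (0.0431) and without either USP47 shRNA library, and its adjusted p ran from 0.000289 to 0.457 over 12 alternatives. The core protein UQCRC2 was at 154 and 149 CPM against 187 and 188 CPM, a log2 fold change of 0.31 with adjusted p = 0.120. Its partner UQCRC1 and the electron-carrying CYC1 and UQCRFS1 had log2 fold changes of 0.02, -0.12 and -0.15. The direction of UQCRC1 turned with library size scaling, to -0.06. UQCRHL, at 0.36, is a near copy of UQCRH and may share its reads, so its value is uncertain.

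Complex IV, cytochrome c oxidase, held 19 nuclear members, of which 15 were tested, 1 rose and 2 fell. COX7C, a small membrane subunit (chr5:85913745-85916779, GRCh37, plus strand), had 63.7 and 76.0 CPM in the controls and 114 and 145 CPM after knockdown. It rose by a log2 fold change of 0.89 (SE 0.15, adjusted p = 0.00532), a fold of 1.85, and had the largest rise of all nuclear members. Within each library its reads were 0.387 and 0.396 times those of COX4I1, a regulatory subunit, in the controls and 0.617 and 0.590 times after knockdown. The call was lost without control replicate 1, where the log2 fold change was 0.77 (adjusted p = 0.0812). That was the highest adjusted p of its 12 alternatives, the lowest being 1.81e-18. COX5A, which binds next to COX4I1, had a log2 fold change of 0.40 (adjusted p = 0.110), COX4I1 0.27 and COX5B 0.24. COX7B was at 0.12 and COX8A at -0.17. COX6B1 lay at 0.00, and its direction turned with the size factors of DESeq2 (0.01).

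The members of complex IV that fell were isoforms. NDUFA4L2, a paralogue of the complex IV subunit NDUFA4 that is known as a hypoxia-inducible gene (chr12:57628686-57634498, GRCh37, minus strand), had 22.1 and 21.9 CPM in the controls and 12.1 and 13.1 CPM after knockdown. It fell with a log2 fold change of -0.81 (SE 0.14, adjusted p = 0.00550). SHMT2 overlaps it on the opposite strand with 5369 to 7200 counts per library and a log2 fold change of -0.13, and with no strand setting given, reads of the overlap cannot be told apart. The same limit holds for ATP5PB below and for the 28 members in all that overlap a gene on the opposite strand. NDUFA4 itself was at 113 and 119 CPM against 126 and 146 CPM and did not pass, at 0.23 (adjusted p = 0.263). The share of NDUFA4L2 in the summed TPM of both genes was 19.9% and 18.9% in the controls and 10.9% and 10.2% after knockdown. Its size depends on the gene lengths behind the TPM, 2806 bases for NDUFA4L2 and 3556 for NDUFA4.

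COX6B2, the testis isoform of COX6B1 (chr19:55860674-55866087, GRCh37, minus strand), was rare, with 46 and 51 counts in the controls and 23 and 11 after knockdown. It fell with a log2 fold change of -1.46 (SE 0.29, adjusted p = 0.00912), the largest fall of all members. Its share of the summed TPM of COX6B1 and COX6B2 went from 0.525% and 0.444% to 0.229% and 0.125%. The gene lengths behind these TPM were 3815 bases for COX6B2 and 936 for COX6B1, so the size of the share depends on them. Both NDUFA4L2 and COX6B2 kept their call in the 12 other fits, and only COX6B2 kept it where a log2 change of at least 1 was also required. COX7A1, the muscle isoform of COX7A2, had 4.00 and 4.12 CPM in the controls and 3.65 and 2.92 CPM after knockdown and did not pass (adjusted p = 0.368). COX7A2L, a relative of COX7A2 found in respiratory supercomplexes, was at 0.47 (adjusted p = 0.0745). The tissue isoforms COX4I2, COX6A2, COX7B2 and COX8C had at most 2 counts in any library and were not tested.

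Complex V, ATP synthase, held 19 nuclear members, of which 18 were tested, 1 rose and 1 fell. ATP5PB, the b subunit of the peripheral stalk (chr1:111991486-112005395, GRCh37, plus strand), had 117 and 110 CPM in the controls and 73.8 and 60.5 CPM after knockdown. It fell with a log2 fold change of -0.75 (SE 0.14, adjusted p = 0.00698), a fold of 0.594. Without control replicate 1 it was at -0.71 and the call was lost (adjusted p = 0.0838), with 2.3e-11 as the lowest adjusted p of its alternatives. The other stalk subunits ATP5PD, ATP5PF and ATP5PO had log2 fold changes of 0.06, 0.23 and 0.19 and did not pass. WDR77, which overlaps ATP5PB on the opposite strand, had 377 and 497 counts against 623 and 472, a log2 fold change of 0.40 (adjusted p = 0.0756).

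ATP5F1D, the delta subunit of the central stalk (chr19:1241745-1244824, GRCh37, plus strand), had 92.6 and 101 CPM in the controls and 121 and 159 CPM after knockdown. It rose by a log2 fold change of 0.54 (SE 0.15, adjusted p = 0.0388), a fold of 1.45. Its size rested on the knockdown library, at 0.73 without USP47 shRNA replicate 1 and 0.33 without replicate 2. The call was lost without control replicate 1 (adjusted p = 0.376), without control replicate 2 (0.172) and with no filter on low counts (0.0557), and the lowest adjusted p of its alternatives was 3.42e-09. ATP5F1A and the catalytic subunit ATP5F1B were at 0.27 and 0.32 (adjusted p = 0.223 and 0.199), and ATP5F1C, the rotating gamma subunit, was at 0.21. Against ATP5F1B in the same library, the reads of ATP5PB were 0.181 and 0.159 in the controls and 0.101 and 0.0649 after knockdown, and those of ATP5F1D were 0.144 and 0.146 against 0.165 and 0.171. The inhibitor ATP5IF1 had a log2 fold change of -0.11, the ring subunits ATP5MC1, ATP5MC2 and ATP5MC3 had 0.27, 0.32 and -0.07, and none of them passed.

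**Figure D4:**
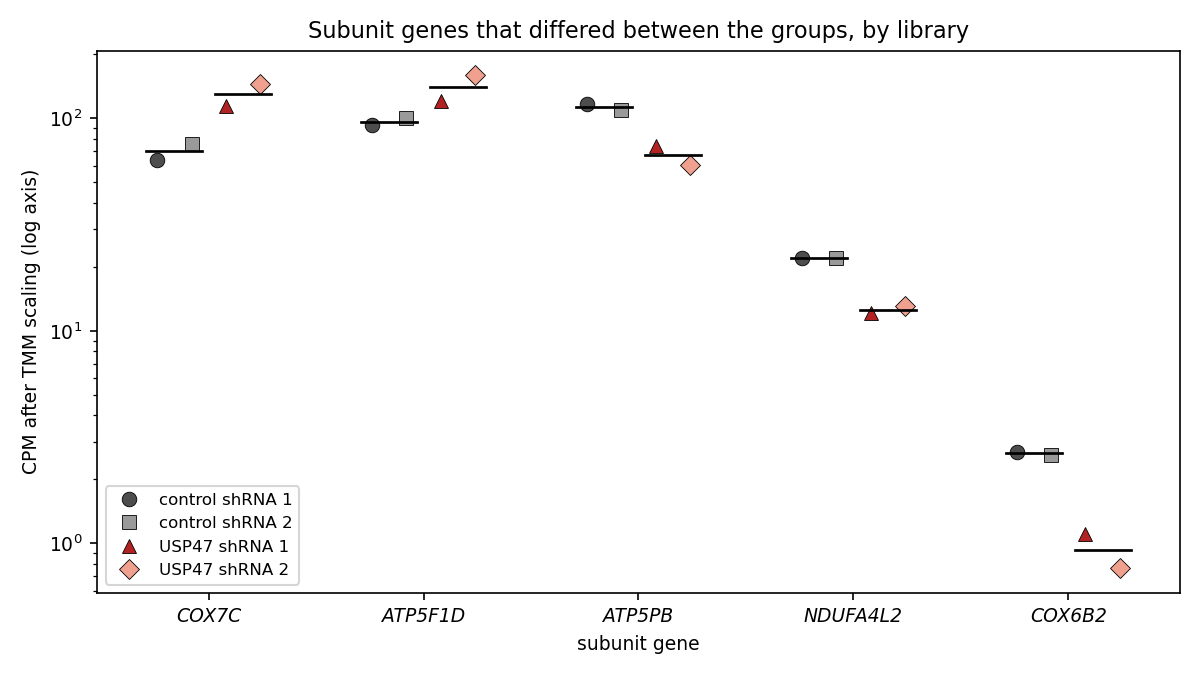
CPM after TMM scaling (log axis) of 5 of the 6 subunit genes that differed between the groups, for 2 control shRNA libraries (circle and square) and 2 USP47 shRNA libraries (triangle and diamond), with black lines for the group means. COX7C and ATP5F1D lie higher in both knockdown libraries and ATP5PB, NDUFA4L2 and COX6B2 lower, with no overlap of the groups.

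Upstream sequences are shown for 4 of the called nuclear members, since these genes carry the differences between the groups. The 250 bases before the start site are given from RefSeq (GRCh38.p14), 5' to 3' on the strand of the gene, with searched motifs in capitals. COX7C (chr5:86617691-86617940, plus strand) holds 2 copies of the ZNF143 motif ACTACANTT and, near the start site, the YY1 motif AAGATGG on the reverse strand. ATP5PB (chr1:111449214-111449463, plus strand) holds 2 copies of the palindrome TCTCGCGAG, each matched on both strands. NDUFA4L2, listed in RefSeq as COXFA4L2 (chr12:57240763-57241012, minus strand, the first of 2 entries), and COX6B2 (chr19:55354720-55354969, minus strand) hold none of the 5 motifs searched. ATP5F1D is named only.
COX7C: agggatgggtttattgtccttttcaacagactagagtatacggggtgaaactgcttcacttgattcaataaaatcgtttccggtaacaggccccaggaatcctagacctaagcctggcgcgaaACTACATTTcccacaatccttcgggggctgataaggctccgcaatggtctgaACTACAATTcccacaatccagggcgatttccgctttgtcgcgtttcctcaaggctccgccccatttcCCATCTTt
ATP5PB: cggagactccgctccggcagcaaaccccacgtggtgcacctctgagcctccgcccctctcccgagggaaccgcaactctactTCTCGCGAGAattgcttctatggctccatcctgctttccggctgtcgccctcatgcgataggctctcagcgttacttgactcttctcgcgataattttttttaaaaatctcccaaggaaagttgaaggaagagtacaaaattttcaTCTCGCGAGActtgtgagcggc
NDUFA4L2: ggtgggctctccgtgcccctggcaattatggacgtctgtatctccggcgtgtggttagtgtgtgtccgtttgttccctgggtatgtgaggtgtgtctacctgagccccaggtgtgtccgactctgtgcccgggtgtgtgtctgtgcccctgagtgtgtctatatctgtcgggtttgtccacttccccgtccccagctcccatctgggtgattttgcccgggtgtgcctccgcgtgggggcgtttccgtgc
COX6B2: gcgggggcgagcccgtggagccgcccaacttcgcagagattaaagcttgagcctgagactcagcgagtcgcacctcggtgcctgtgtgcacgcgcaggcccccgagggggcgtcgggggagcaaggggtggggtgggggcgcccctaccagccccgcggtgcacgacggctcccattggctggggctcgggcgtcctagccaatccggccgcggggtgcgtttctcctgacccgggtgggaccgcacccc

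Of the 89 nuclear members, 73 had a promoter entry. The NRF1 motif GCGCANGCG stood in 22 of them (30.1%), beside 7.98% of the 27305 genes with an entry, and the ETS motif CCGGAAG in 18 (24.7%), beside 10.2%. The YY1 motif stood in 6.85% of members and 4.49% of all genes, the ZNF143 motif in 2.74% and 1.53%, and the palindrome in 1.37% and 0.725%. Both strands were searched in the same 250 bases throughout. Members with the NRF1 motif had a median log2 fold change of 0.22 (21 tested) and those without it 0.19 (49 tested), while for the ETS motif the medians were 0.17 and 0.22. Neither motif was present in the upstream sequences shown for the 4 called genes.

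Reads of the mitochondrial genes can also fall on copies of mitochondrial DNA in the nuclear genome, and 390 such pseudogenes held 9.49% of the reads of the mitochondrial members and their copies together. A stretch of chromosome 1 (chr1:564442-570302, GRCh37) carried most of them, with MTCO1P12 at 151600 counts, MTND2P28 at 89287 and MTATP6P1 at 38228 over the 4 libraries. Copies took 27.4% of such reads for MT-ND2 and 14.4% for MT-CO1, and only 0.783% for MT-ND4. The log2 fold changes were -0.12 for MTND2P28, -0.17 for MTATP6P1, -0.22 for MTCO3P12, 0.17 for MTND6P4 and 0.33 for MTND5P11. Near 0 lay MTCO1P12 at -0.00177 and MTND1P23 at 0.02. None of these copies passed the test. Pseudogenes of nuclear members held 2.61% of the reads, with the highest shares for COX6A1 (44.9%) and SDHA (37.4%) and 2.32% for COX7C. With the copies added to their genes the same 6 members were called.

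Of 50 assembly factors tested, 3 rose and 3 fell, with a median log2 fold change of 0.04. These counts, and those of the gene groups that follow, stand beside 6.52% of all genes called higher and 9.56% called lower. TIMMDC1, which assembles the membrane arm of complex I, had 22.6 and 22.0 CPM in the controls and 12.1 and 11.4 CPM after knockdown and fell with a log2 fold change of -0.92. LYRM7, a complex III assembly factor, fell at -0.55, and ECSIT, a complex I assembly factor, rose at 0.56.

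Of 31 genes for mitochondrial DNA expression, 2 rose and 0 fell, with a median of 0.18. These were ELAC2 at 0.52 and HSD17B10 at 0.48, which process the ends of mitochondrial transfer RNAs out of the long transcripts. Mitochondrial translation had 87 genes tested, of which 5 rose and 2 fell, beside the same 6.52% and 9.56%, with a median of 0.19. MRPS33, a protein of the small mitochondrial ribosomal subunit, had 15.5 and 15.7 CPM in the controls and 8.30 and 8.27 CPM after knockdown and fell at -0.91. MRPS14, another protein of that subunit, fell at -0.56, and OXA1L, which inserts the newly made proteins into the inner membrane, rose at 0.59.

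Of 16 regulators of mitochondrial biogenesis, 1 rose and 1 fell. PPARGC1A, the coactivator PGC-1 alpha, was rare, with 30 and 34 counts in the controls and 7 and 9 after knockdown, and fell with a log2 fold change of -1.92 (SE 0.37). MYC rose at 0.59, with 334 and 371 CPM in the controls and 451 and 615 CPM after knockdown. Of 17 genes of the tricarboxylic acid cycle, which feeds NADH and succinate to complexes I and II, 2 rose and 1 fell, among them IDH3G at 0.69 and IDH2 at -0.49. Of 22 genes for electron carriers and nucleotide exchange, ETFDH, which passes electrons from fatty acid oxidation to ubiquinone, rose at 0.56, and COQ2, an enzyme of ubiquinone synthesis, fell at -0.50.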

How the data were processed

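HGC-27 RNA-Seq gave 4 libraries, assigned to groups from the submitters' labels. For each gene the authors deposited a count of reads without normalization, with FPKM and TPM values derived from those counts by the authors. FPKM served only to read gene lengths, TPM to compare levels, and counts for all tests. The methods and the submitters' processing notes name trimming below a quality score of 20, STAR 2.7.5c on hg19, SAMtools 1.9 for removal of duplicates and featureCounts. Duplicate removal without molecular identifiers lowers the highest counts most, mitochondrial genes included, and its part in the results was not tested. The labels name a stranded ABclonal kit and the methods a Vazyme kit. The labels describe duplicates and the methods triplicates, and 2 libraries per group were analysed here. Symbols came from GENCODE release 44 on GRCh37, and 55665 of 63568 identifiers matched.

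Counts were fitted with edgeR 4.0.16 in R 4.3.3 (TMM, filterByExpr, robust quasi-likelihood test) on all genes, and DESeq2 1.42.0 was an alternative. The SE is the size of the log2 change over the root of F. CPM values are TMM-scaled. Named genes were all mitochondrial members, all called nuclear members, core subunits, isoform pairs, the most abundant, highest and lowest member of each complex, and up to 3 called genes with the smallest adjusted p of each further list. NDUFB9, UQCRH, ATP5PD, ATP5PF, ATP5PO and WDR77, outside this rule, were chosen after their values were seen. A called member and a gene of the tricarboxylic acid cycle are not reported here. Members and lists were chosen with earlier results of these data known. Alternatives were other scalings, filters, a call rule with a log2 change of at least 1, a block for the replicate number, omission of each library in turn and, chosen after seeing the data, pseudogene copies added and library positions in CPM by library size alone and in TPM.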

Additional observations from a re-analysis of the deposited data

How the results depend on the processing

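The medians of both genomes and the fall of USP47 kept their direction under every alternative run on them. The nuclear median ran from 0.11 to 0.28 and the mitochondrial one from -0.25 to -0.04, both ends being fits that left out a USP47 shRNA library. Counts of called members moved more. Nuclear members called higher numbered 1 with no filter on low counts, 0 where a call also needed an absolute log2 change of 1 and 0 to 39 when single libraries were left out. Nuclear members called lower numbered 1 under that rule and 2 to 8 with single libraries left out. Mitochondrial members called higher numbered 0 to 1 and called lower 0 to 5 with single libraries left out, and library size alone gave 1 called lower, MT-ATP6. Library size alone also moved the median of all genes from -0.01 to -0.07 and gave 882 genes called higher and 1922 lower, beside 1430 and 2097. With no filter on low counts, 1008 of 41439 genes were called higher and 1885 lower. Over all genes, calls in both directions rose without either USP47 shRNA library and fell without either control library. Nuclear member calls moved the same way. For the rule on the log2 change, a count over all genes is not given here. Leaving out a control library gave 322 and 904 calls (replicate 1) or 407 and 1007 (replicate 2), and the DESeq2 Wald test gave 1122 and 1173.

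Positions of the libraries moved too. In TPM 28 nuclear members (33.3%) had both knockdown libraries above both controls, beside 16.3% of all genes. Another 20 (23.8%) had both below, beside 32.1% of all genes. After TMM scaling the numbers were 45 (53.6%) above and 12 (14.3%) below, beside 29.3% and 31.7% of all genes.

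Replicate numbers are shared between the groups, but no source ties a number to a batch or day, and with 2 pairs the deviations of same-numbered libraries correlated at 0.213. With the replicate number as a block, 25 of 84 nuclear members were called higher and 7 lower, UQCR10 and NDUFS1 among the lower. The 6 genes called without the block were all among those called. Of all 21932 genes, 3530 were called higher and 3892 lower with the block, beside 1430 and 2097 without it.

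Genes with fits near 0 changed sign under some alternatives, and none passed the test in the fit that turned it. With single libraries left out, the log2 fold change ran from -0.205 to 0.000723 for ATP5IF1, -0.218 to 0.086 for ATP5MC3, -0.0907 to 0.416 for COX6A1, -0.0611 to 0.477 for COX7A2, -0.362 to 0.0236 for COX8A, -0.28 to 0.0304 for CYC1, -0.207 to 0.0385 for MT-CO1, -0.0209 to 0.272 for NDUFS5, -0.182 to 0.172 for COX6B1, -0.0565 to 0.0745 for MT-ND1 and -0.175 to 0.208 for UQCRC1. COX6B1 went to 0.0146 with DESeq2 size factors and to 0.0185 in the DESeq2 Wald test. MT-ND1 went to -0.0689 with library size alone, -0.0278 with no filter and -0.0129 with at least 10 counts in every library. UQCRC1 went to -0.0555 with library size alone and -0.0121 with no filter. With 2 libraries a group, a library left out leaves a lone library assumed to vary like the others, and depth limits the rare members COX6B2 and COX7A1 most.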
